A study of Mus musculus with 6 samples.

Results

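Aminoacyl-tRNA synthetases attach each amino acid to its transfer RNA and so supply both the cytosolic and the mitochondrial ribosome. A list of 36 of these enzymes, 20 cytosolic and 16 mitochondrial, was looked up by gene symbol, and all 36 were found among the 22926 features with a sense tag. Polyadenylated RNA was profiled by MACE (massive analysis of cDNA ends), in which a transcript gives 1 tag near its 3' end whatever its length, so tag levels can be set side by side between genes. The 6 libraries came from C57BL/6 mice at 6 months of age, either homozygous for a knockout of Atxn2 (Atxn2-KO) or wild type (WT), in cerebellum, hippocampus and liver. Each library was a pool of 3 animals, and there was 1 library per genotype and tissue, so no group had a spread of its own. The title and design text of the series ask which transcripts of the translation machinery change in the same way in all 3 tissues without ataxin-2, an RNA-binding protein that associates with the poly(A)-binding protein.

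Both sets of synthetases are encoded in the nucleus. Most amino acids have a cytosolic enzyme and a separate mitochondrial enzyme, which is marked by a 2 at the end of its symbol. Gars and Kars serve both compartments from 1 gene, Eprs joins the glutamate and proline enzymes in a single chain, and Farsa and Farsb are the subunits of the phenylalanine enzyme. In the cytosol, 8 of the listed enzymes (Eprs, Dars, Rars, Iars, Lars, Mars, Qars and Kars) assemble with the scaffold proteins Aimp1, Aimp2 and Eef1e1 into the multisynthetase complex, while the other 12 work outside it. Several cytosolic synthetase genes are known targets of ATF4, the transcription factor that is translated when uncharged transfer RNA accumulates.

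Gene tags numbered 1774523 to 2727523 per library, and the synthetases together took 0.118% to 0.229% of them. Atxn2 gave 0, 1 and 2 tags in the knockout libraries of cerebellum, hippocampus and liver, against 167, 194 and 115 in the wild type. The tissue labels were checked against marker lists, in tags per 1000000 gene tags (CPM) after TMM scaling (the trimmed mean scaling of edgeR). In cerebellum 10 Purkinje cell genes summed to 7104 and 7863 CPM. In hippocampus 10 forebrain neuron genes summed to 7181 and 8074 CPM, and 15 hepatocyte genes summed to 200920 CPM or more in both liver libraries. The protocol text of the labels names midbrain, but 9 midbrain genes summed to 5.62 and 7.50 CPM in the hippocampus libraries. The same text gives ages in weeks, and the 6 months of the sample labels were followed. Hepatocyte genes summed to 315 to 1645 CPM in the brain libraries, highest in wild-type hippocampus. Xist, expressed from the inactive X chromosome of females, gave 0 tags in the 3 knockout libraries and 34, 49 and 87 in the wild-type libraries, while the Y-linked Ddx3y gave 81 to 176 tags in all 6. The sex make-up of the pools therefore differed with genotype, and the 2 cannot be told apart here.

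The cytosolic enzymes ranged over more than an order of magnitude in every tissue, and the enzyme at the top was not the same in brain and liver. Levels below are likewise CPM after TMM scaling, listed with the knockout before the wild type. Nars, which charges asparagine, gave 216 and 218 CPM in cerebellum, 205 and 187 in the hippocampus and 189 and 166 in liver. It held the largest share of cytosolic synthetase tags in all 4 brain libraries, from 15.2% to 16.3%, and 10.0% and 9.83% in liver. Aars, the alanine enzyme, gave 132 and 133 CPM in cerebellum, 83.7 and 93.6 in the hippocampus and 282 and 248 in liver, where it ranked first with 15.0% (exact 95% Clopper-Pearson interval 13.3 to 16.7) and 14.7% (13.3 to 16.1) of the cytosolic tags. Eprs gave 111 and 74.6 CPM in cerebellum, 78.0 and 70.7 in the hippocampus and 177 and 184 in liver. At the other end, Lars, the leucine enzyme of the complex, was the least abundant cytosolic enzyme in all 6 libraries, with 9.92 to 24.9 CPM. All such intervals cover counting error only, not the differences between animals.

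**Figure D1:**
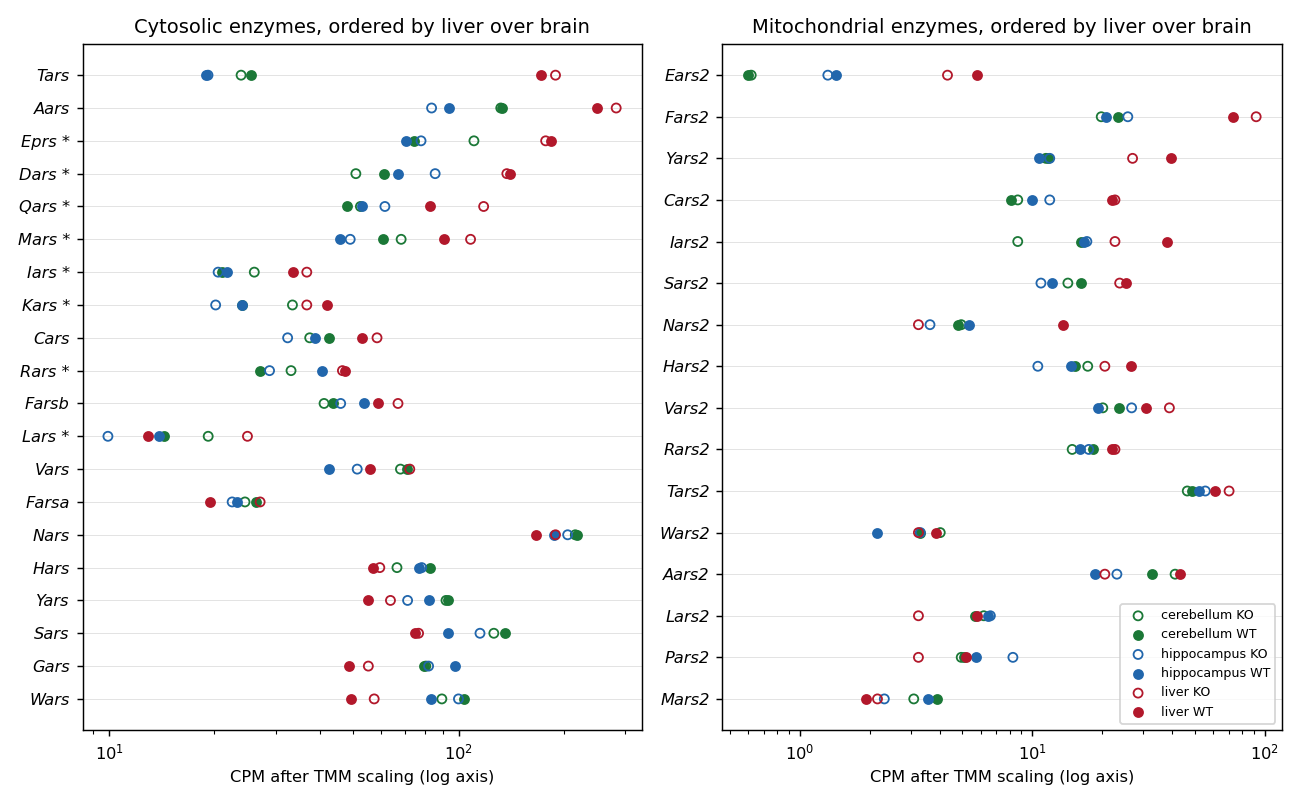
Level of each synthetase in CPM after TMM scaling (log axis), 1 point per library, with knockout pools as open and wild-type pools as filled circles; cytosolic enzymes are on the left, mitochondrial ones on the right, both ordered by liver over brain, and a star marks enzymes of the multisynthetase complex. Tars stands apart at the top, with the liver points at 172 and 189 CPM and the brain points between 18.9 and 25.5, while Wars, Gars and Sars lie lower in liver than in brain.

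Among the 34 members tested, the largest difference between tissues was in threonine charging. Tars, the cytosolic threonine enzyme (chromosome 15, 11383663 to 11399658, RefSeq on GRCm38.p6), gave 77 and 85 tags in cerebellum, 58 and 53 in the hippocampus and 175 and 266 in liver. On the CPM scale this was 23.8 and 25.5 in the cerebellum, 19.2 and 18.9 in the hippocampus, and 189 and 172 in liver, 8.26 times the brain mean. The liver and brain values did not overlap, and the 2 genotypes lay close together in each tissue. The fitted log2 difference of liver from cerebellum was 2.86 ± 0.18 (SE) and that of liver from hippocampus 3.24 ± 0.19 (edgeR quasi-likelihood test over 11375 genes, Benjamini-Hochberg adjusted p = 3.3e-11 and 1.0e-11). In bulk tissue, fewer cells of a type and less RNA per cell cannot be told apart. The scale matters too: with library totals in place of TMM the median of all genes moved by -1.37 against cerebellum and -1.25 against hippocampus. Tars was still higher in liver on that scale, by 1.49 and 1.98 (adjusted p = 8.6e-07 and 4.7e-08). A measure that needs no scaling is the share of Tars among cytosolic synthetase tags, which was 1.71%, 1.84%, 1.52% and 1.54% in the brain libraries and 10.0% and 10.2% in the liver libraries. It ranked between 17 and 19 of the 20 enzymes in brain and 2 and 3 in liver.

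ATF4 is known to bind a composite C/EBP-ATF motif, and Tars is among the synthetases whose promoter holds its letters. The letters TGATGNAA were searched on both strands from 250 bases before to 50 after each start in RefSeq promoters (GRCm38.p6), which matched 13 cytosolic and 14 mitochondrial enzymes. They were found in 5 of the 13 cytosolic promoters (38.5%), in 0 of the 14 mitochondrial ones and in 3.97% of all 32851 promoters. The 5 windows are shown because these enzymes include the one with the largest liver difference of the tested members. They also include 2 that were lower in liver than in cerebellum after TMM scaling. Each runs 5′ to 3′ on the strand of the gene, with the matched letters in capitals, and Tars, Aars, Gars and Iars hold the letters in reverse orientation.
Tars (chr15:11399640-11399699, minus strand): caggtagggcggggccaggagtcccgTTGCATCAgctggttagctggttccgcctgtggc
Aars (chr8:111033704-111033763, plus strand): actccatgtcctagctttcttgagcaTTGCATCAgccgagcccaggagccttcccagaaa
Gars (chr6:55037945-55038004, plus strand): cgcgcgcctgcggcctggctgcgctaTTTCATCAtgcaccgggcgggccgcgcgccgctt
Iars (chr13:49682111-49682170, plus strand): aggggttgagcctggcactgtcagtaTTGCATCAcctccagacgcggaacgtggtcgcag
Yars (chr4:129189880-129189939, plus strand): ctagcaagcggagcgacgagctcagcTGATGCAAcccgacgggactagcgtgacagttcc
The first matched base lay at -112 from the start in Aars, -30 in Gars, -15 in Tars, 4 in Yars and 8 in Iars, and Aars held 2 matches. A match in these windows is a description of letters. After TMM scaling Tars, Aars and Iars were higher in liver than in cerebellum, and Gars and Yars were lower. On library totals Tars was higher (log2 1.49). Aars (-0.38), Iars (-0.79), Gars (-2.01) and Yars (-2.03) were lower there, as were 70.6% of all genes.

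Among all members, 16 of the 34 tested were higher in liver than in cerebellum (9 cytosolic and 7 mitochondrial) and 4 fell below it. Of all genes tested, 31.9% were higher and 36.6% lower. Against hippocampus, 16 were higher and 3 lower, with 32.7% and 35.9% of all genes. The synthetases had a median log2 difference of 0.51 from cerebellum, and all genes one of -0.15. On library totals the counts became 2 higher and 25 lower against cerebellum, where 12.0% of all genes were higher and 70.6% lower. Against hippocampus they became 2 higher and 18 lower, with 13.5% and 66.1% of all genes. The synthetase median from cerebellum was then -0.86, with -1.51 for all genes. Tars and Fars2 were higher, and Gars, Sars and Wars lower, against both brain tissues on both scales. With the DESeq2 test Sars did not pass against hippocampus (log2 -0.58, adjusted p = 0.083). Aars was called higher in liver against both brain tissues after TMM scaling (log2 1.00 and 1.58), but on library totals it stood at -0.38 from cerebellum (adjusted p = 0.037) and 0.32 from hippocampus (adjusted p = 0.086).

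After TMM scaling the enzymes that were lower in liver were all cytosolic and all outside the multisynthetase complex; on library totals 9 of the 25 lower against cerebellum were mitochondrial. Wars, the tryptophan enzyme, gave 89.5 and 104 CPM in cerebellum, 99.9 and 83.6 in the hippocampus and 57.3 and 49.1 in liver, a log2 difference of -0.88 ± 0.20 and -0.80 ± 0.20 (adjusted p = 0.00064 and 0.0016). Gars, the glycine enzyme for both compartments, gave 80.5 and 79.4 CPM in cerebellum, 82.0 and 97.5 in the hippocampus and 55.1 and 48.5 in liver (log2 -0.64 and -0.81). Sars, the serine enzyme, gave 126 and 135, 115 and 93.2, and 76.8 and 75.0 CPM (log2 -0.78 and -0.45). These 3 were picked for the lowest liver over brain ratios of the cytosolic set. In each of the 3 the liver values lay below all 4 brain values, and how often that held over all genes was not counted. Yars, the tyrosine enzyme, passed against cerebellum (log2 -0.66, adjusted p = 0.0045) and not against hippocampus (log2 -0.39, adjusted p = 0.079).

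Enzymes of the multisynthetase complex took a larger part of the cytosolic set in liver than in brain. All 8 had a fitted difference above 0 in both liver contrasts after TMM scaling, with medians of 0.62 and 0.82, and 6 of them passed as higher in each, against 31.9% and 32.7% of all genes. The 12 enzymes outside the complex had medians of -0.23 and -0.08. On library totals the order was the same, with -0.75 and -0.43 for the complex and -1.60 and -1.34 for the others. There 0 of the 8 were higher, and 5 were lower against cerebellum and 2 against hippocampus, with 70.6% and 66.1% of all genes lower. Free of any scaling, the complex held 28.3% (27.0 to 29.7) and 23.9% (22.6 to 25.1) of cytosolic tags in cerebellum, 28.1% and 27.4% in hippocampus, and 36.4% (34.1 to 38.7) and 37.4% (35.6 to 39.3) in liver. Besides Eprs, the aspartate enzyme Dars contributed most to this, with 137 and 140 CPM in liver against 50.8 to 85.6 in the brain libraries. The glutamine enzyme Qars gave 118 and 82.7 CPM in liver and 48.0 to 61.5 in brain, and Lars, at 24.9 and 12.9 CPM in liver, overlapped with its brain values. Of the scaffold genes Aimp1, Aimp2 and Eef1e1, 0 of 3 passed in either liver contrast after TMM scaling, with medians of 0.21 and -0.02. On library totals all 3 were lower in both contrasts, with medians of -1.16 and -1.27.

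**Figure D2:**
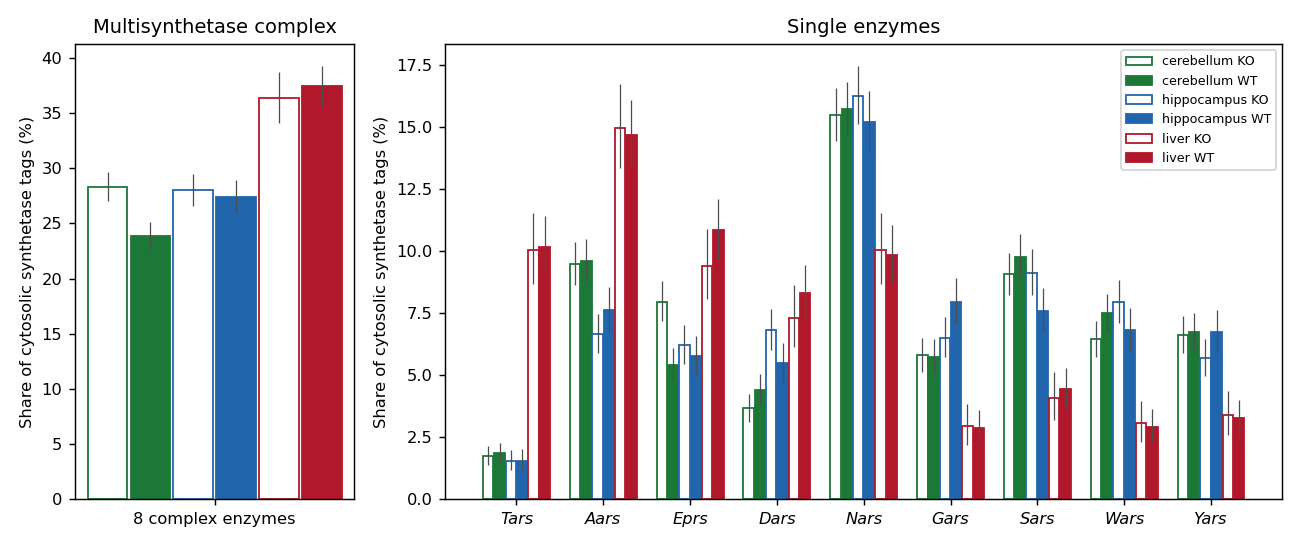
Share of all cytosolic synthetase tags (%) held by the 8 complex enzymes together (left) and by single enzymes (right), 1 bar per library with its exact 95% counting interval; open bars are knockout and filled bars wild type. The complex holds 36.4% and 37.4% in liver against 23.9% to 28.3% in brain, Tars holds 1.52% to 1.84% in brain and 10.0% and 10.2% in liver, and the share of Nars is lower in liver.

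Cerebellum and hippocampus differed less. Aars, Vars (valine) and the mitochondrial Aars2 were higher in cerebellum, by log2 0.58, 0.58 and 0.82 (edgeR adjusted p = 0.012, 0.017 and 0.019), and 0 members were lower. In all genes 13.3% were higher and 15.1% lower. Both enzymes for alanine were thus among the 3 that passed. DESeq2 called 0 members here. With library totals, which moved the median of all genes by 0.12, 4 were higher and 0 lower, with 16.4% and 12.0% of all genes.

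Mitochondrial enzymes were the smaller set in every library. Their tags together made up 14.0% and 14.6% of synthetase tags in cerebellum, 15.8% and 14.9% in the hippocampus, and 16.8% and 19.8% in liver. The median mitochondrial enzyme stood at 10.1 to 13.5 CPM in brain and 21.6 and 23.6 in liver, where the median cytosolic enzyme stood at 53.2 to 65.4 over all 6 libraries. Tars2, the mitochondrial threonine enzyme (chromosome 3, 95739974 to 95756365), was the most abundant on average: it gave 46.5 and 48.6 CPM in cerebellum, 55.6 and 52.1 in the hippocampus and 70.3 and 61.4 in liver. Fars2, the mitochondrial phenylalanine enzyme (chromosome 13, 36117428 to 36537595), gave 19.8 and 23.4 CPM in cerebellum, 25.8 and 20.7 in the hippocampus and 91.9 and 73.1 in liver. Its liver values lay above all brain values, with log2 differences of 1.91 ± 0.21 and 1.81 ± 0.21 (adjusted p = 1.5e-07 and 3.1e-07). Aars2 gave 41.2 and 32.7 CPM in cerebellum, 23.1 and 18.6 in the hippocampus, and 20.5 and 43.3 in liver, where the 2 genotypes lay further apart than in either brain tissue.

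Among the other mitochondrial enzymes, Yars2 (tyrosine), with 10.7 to 11.9 CPM in brain and 27.0 and 39.4 in liver, and Cars2 (cysteine), with 8.09 to 11.9 in brain and 22.7 and 22.0 in liver, were higher in liver in both contrasts after TMM scaling. Iars2 (isoleucine) and Sars2 (serine) were too. On library totals none of these 4 passed as higher. Ears2, the glutamate enzyme, was close to the limit of counting, with 2 and 2 tags in cerebellum, 4 and 4 in the hippocampus and 4 and 9 in liver, and it did not pass the filter for the test. Mars2 (methionine), Pars2 (proline) and Lars2 (leucine) had the lowest liver over brain ratios: Mars2 gave 2.31 to 3.90 CPM in brain and 2.16 and 1.94 in liver, Pars2 gave 4.96 to 8.27 and 3.24 and 5.17, and Lars2 gave 5.70 to 6.61 and 3.24 and 5.82. These rested on 2 to 9 tags in liver, and none of the 3 passed after TMM scaling.

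For 17 combinations of a cytosolic and a mitochondrial gene for the same amino acid, both counted in the same library, the cytosolic gene gave more tags in 14 to 16 per library. In brain, threonine was the only exception with an interval that excluded 1, and in liver Tars gave more tags than Tars2. In knockout hippocampus Fars2 also gave more tags than Farsa (78 and 68), with an interval that included 1. Tars2 gave 1.95 (1.47 to 2.60) and 1.91 (1.46 to 2.51) tags for each Tars tag in cerebellum and 2.90 (2.14 to 3.97) and 2.75 (2.00 to 3.85) in hippocampus, but 0.371 (0.275 to 0.496) and 0.357 (0.280 to 0.453) in liver. In brain all 4 intervals lay above 1, and in liver both lay below it. The direction for Tars2 itself depended on the scale: after TMM scaling it was higher in liver than in cerebellum (log2 0.46, adjusted p = 0.037) and did not pass against hippocampus (log2 0.28, adjusted p = 0.19). On library totals it was lower in both (log2 -0.91 and -0.97, adjusted p = 0.00028 and 0.00016). Tarsl2, a further threonyl-tRNA synthetase gene singled out here after its values were seen, gave 8.67 to 13.6 CPM in the brain libraries and 9.73 and 6.46 in liver and did not pass in either contrast (adjusted p = 0.51 and 0.079).

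Phenylalanine showed the opposite turn. Fars2 gave 0.810 to 1.15 tags per tag of the cytosolic subunit Farsa in brain, where all 4 intervals included 1, and 3.40 (2.16 to 5.54) and 3.77 (2.50 to 5.84) in liver. Farsa itself stood at 22.5 to 26.4 CPM in brain and 27.0 and 19.4 in liver. Against Farsb, Fars2 gave 0.387 to 0.561 tags per tag in brain and 1.37 (0.977 to 1.93) and 1.24 (0.934 to 1.66) in liver. The widest combination was Eprs over Ears2, at 31.6 to 178.5 tags per tag, where Ears2 gave 2 to 9 tags. Asparagine had 12.2 to 58.3 Nars tags per Nars2 tag and methionine 12.8 to 50.0 Mars tags per Mars2 tag.

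**Figure D3:**
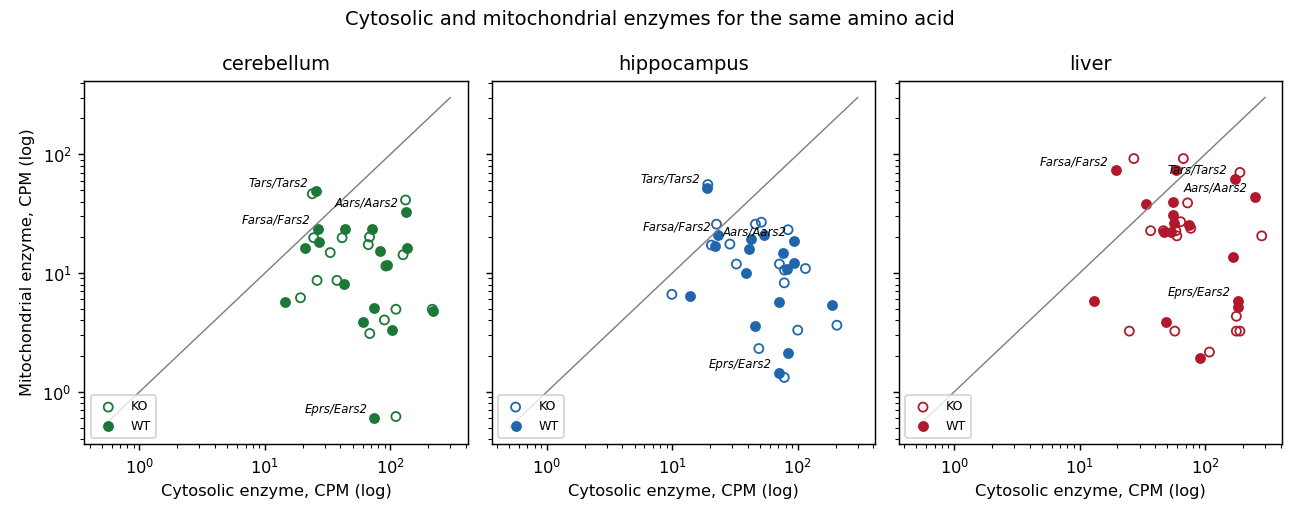
Level of the mitochondrial enzyme (vertical) against the cytosolic enzyme for the same amino acid (horizontal), both in CPM after TMM scaling on log axes, for 17 combinations per tissue; open circles are knockout, filled circles wild type, and the grey line marks equal levels. Most points lie under the line; the threonine pair lies above it in cerebellum and hippocampus and under it in liver, where Fars2 lies above Farsa.

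Summed over each set, cytosolic tags exceeded mitochondrial tags 6.14-fold (5.67 to 6.64) and 5.84-fold (5.41 to 6.30) in cerebellum, 5.32-fold and 5.69-fold in hippocampus, and 4.95-fold (4.41 to 5.57) and 4.04-fold (3.71 to 4.41) in liver. The wild-type liver value lay below the intervals of all 4 brain libraries. The knockout liver value lay below 3 of them and inside that of knockout hippocampus (4.91 to 5.77). This ratio needs no scaling between libraries.

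Loss of Atxn2 was tested across the 3 tissues together, with tissue as a block. A genotype's libraries share their animal numbers between tissues, so this test measures how alike the tissues were, not how much animals varied. None of the 34 members tested passed (edgeR, Benjamini-Hochberg adjusted p of at least 0.998 in every member), and 1 had an unadjusted p under 0.05. In all 11375 genes, 0.00879% passed as higher and 0.0879% as lower. DESeq2 also called 0 members, with 0 at an unadjusted p under 0.05. Of the 20 cytosolic enzymes 14 had a fitted change above 0, with a median log2 change of 0.05, and of the 14 mitochondrial ones 6 did, with a median of -0.05. The median of all genes was -0.00. Ears2 and Wars2 were too low for the test.

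The highest fitted changes among cytosolic enzymes were in the complex: Qars 0.27 ± 0.15 (unadjusted p = 0.075), Lars 0.24 ± 0.26 and Eprs 0.23 ± 0.15. Qars gave 169 and 160 tags in cerebellum, 186 and 148 in the hippocampus and 109 and 128 in liver, which after scaling placed the knockout above the wild type in each tissue. In the complex as a whole 7 of the 8 enzymes were above 0, with a median of 0.15. Scaling by library totals left 6 of these 8 and 11 of the 20 cytosolic enzymes above 0, with medians of 0.11 and 0.01. The lowest were Cars (cysteine) at -0.13, with 37.5 and 42.6, 32.4 and 38.9, and 58.4 and 53.0 CPM, Hars (histidine) at -0.10, with 66.6 and 82.7, 78.4 and 76.8, and 59.5 and 56.9 CPM, and Rars (arginine) at -0.08. None of these 6 passed the test.

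Among mitochondrial enzymes the fitted changes ran from -0.62 to 0.17, against -0.13 to 0.27 in the cytosolic set. Iars2 gave 28 and 54 tags in cerebellum, 52 and 47 in the hippocampus and 21 and 59 in liver, a fitted log2 change of -0.49 ± 0.23 (unadjusted p = 0.049, adjusted p = 0.998). The knockout was lower in cerebellum and liver and level with the wild type in hippocampus. Nars2 stood at -0.62 ± 0.39, with 16 and 16 tags in cerebellum, 11 and 15 in the hippocampus and 3 and 21 in liver. Mars2 stood at -0.38 ± 0.45 on 2 to 13 tags per library. On the other side were Vars2 (valine) at 0.17 ± 0.20, with 20.1 and 23.7, 26.8 and 19.3, and 38.9 and 31.0 CPM, Fars2 at 0.15 ± 0.18 and Cars2 at 0.14 ± 0.25. Vars2 and Fars2 were lower in the knockout in cerebellum and higher in hippocampus and liver.

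Within a tissue 1 knockout pool was set against 1 wild-type pool, so these ratios have no replicate check and no test. A ratio was counted when it was at least 0.5 on the log2 scale in either direction and the mean was at least 10 CPM. In cerebellum 29 members reached that level: 1 was past the limit as higher, Eprs, and 1 as lower, Iars2, against 2.95% and 3.70% of all genes. Eprs gave 357 tags in the knockout and 249 in the wild type, a log2 ratio of 0.57 with an exact 95% counting interval of 0.33 to 0.81. Iars2 stood at -0.90 (-1.61 to -0.22). Of the other 7 enzymes of the complex 6 were above 0, with Dars at -0.27. Over all 8, Eprs included, the median was 0.30 and the summed tags, 1272 and 1103, gave a ratio of 0.25 (0.14 to 0.37). The 12 free enzymes summed to a ratio of -0.08 (-0.15 to -0.01), with 11 of 12 below 0, against 4409 of 8535 genes. Without Eprs, left out after its value was seen, the other 7 summed to 915 and 854 tags and a ratio of 0.15 (0.01 to 0.28). Markers of other cells differed between the same pools: 7 oligodendrocyte genes summed to 3653 and 4875 CPM and 9 choroid plexus genes to 2514 and 3640, with 0 of either list at 0 tags. Their part in these ratios was not tested.

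In hippocampus 30 members were measured at 10 CPM or more, 0 past the limit as higher and 1 as lower, against 7.05% and 6.11% of all genes. The 1 was Rars, with 87 and 114 tags and a ratio of -0.50 (-0.92 to -0.09); in cerebellum it stood at 0.30 (-0.12 to 0.72) and in liver at -0.02. The complex had 4 enzymes above and 4 below 0 here, with a median of 0.01. Eprs stood at 0.14 (-0.14 to 0.42). Markers of other cells differed between the hippocampus pools too. Hepatocyte genes summed to 315 and 1645 CPM in knockout and wild type, and oligodendrocyte genes to 2371 and 2977. The red blood cell genes went the other way, with 263 and 196 CPM. Their part in these ratios was not tested.

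In liver 30 members were measured, 2 past the limit as higher and 3 as lower, against 10.1% and 16.2% of all genes. Higher were Lars at 0.94 (0.01 to 1.88), on 23 and 20 tags, and Qars at 0.51 (0.13 to 0.89). With library totals Qars fell under the limit, and Lars stood at 0.82 with an interval that included 0. Lower were 3 mitochondrial enzymes: Aars2 at -1.08 (-1.89 to -0.32) on 19 and 67 tags, Iars2 at -0.75 (-1.54 to -0.01), and Yars2 at -0.54 (-1.28 to 0.15). Nars2, with 3 and 21 tags, had a ratio of -2.07 (-4.45 to -0.32) at a mean under 10 CPM. Aars2 stood at 0.33 in cerebellum and 0.32 in hippocampus, both with intervals that included 0, so its liver value was not shared by the brain tissues. The summed cytosolic tags gave a ratio of 0.16 (0.07 to 0.24) in liver, and the summed mitochondrial tags one of -0.14 (-0.33 to 0.05). Of the 20 cytosolic enzymes 16 were above 0, against 4008 of 8248 genes. With library totals 14 were (3068 of 8248 genes), and with DESeq2 size factors 19 (4542 of 8248). Scaling by library totals moved the median of all genes in this comparison by -0.12, the cytosolic sum became 0.03 (-0.05 to 0.12) and the mitochondrial sum -0.26 (-0.45 to -0.07). The cytosolic interval thus excluded 0 on the first scale and the mitochondrial one on the second. The 8 of 10 listed red blood cell genes that were found summed to 1038 and 564 CPM in the knockout and wild-type liver pools, with 1 of them at 0 tags in the knockout, and their part in these ratios was not tested.

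**Figure D4:**
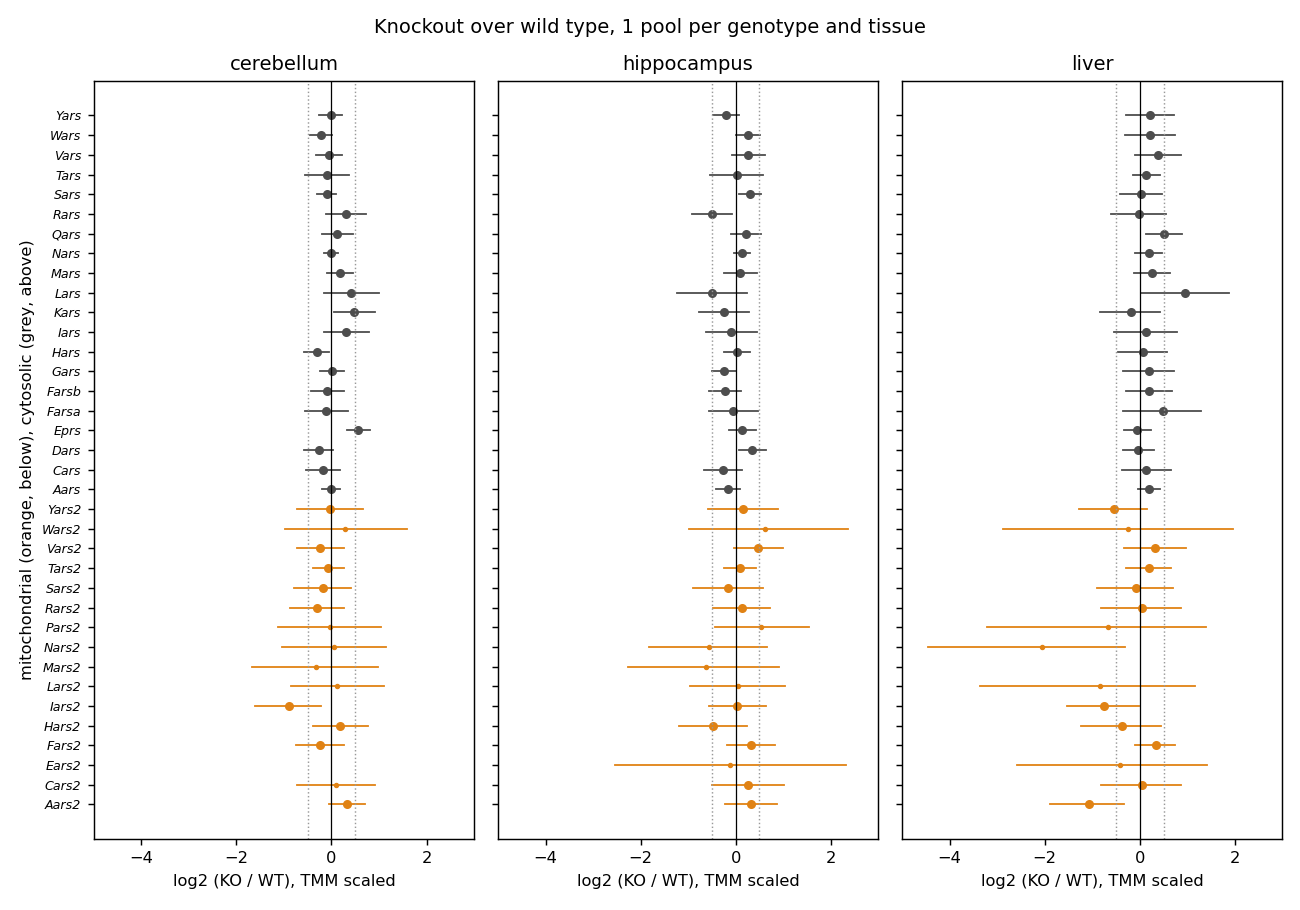
Log2 ratio of knockout over wild type (TMM-scaled) for each synthetase in each tissue, 1 pool per genotype, with exact 95% counting intervals; small points mark members with a mean under 10 CPM in that tissue, dotted lines mark 0.5 in either direction, and a member with at most 3 tags in both libraries has no point. Of the cytosolic enzymes (grey), Eprs in cerebellum (0.57), Rars in hippocampus (-0.50) and Lars and Qars in liver (0.94 and 0.51) reach the dotted lines, and Iars2, Aars2 and Nars2 (orange) reach -0.75, -1.08 and -2.07 in liver.

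Genes that work beside the synthetases showed 0 calls for genotype in each of 5 lists. In the scaffold of the complex, Aimp1 gave 221 and 157 tags in cerebellum, 230 and 178 in the hippocampus and 69 and 112 in liver, a fitted change of 0.30 ± 0.15 (unadjusted p = 0.054, adjusted p = 0.998). Its ratio was 0.54 (0.24 to 0.85) in cerebellum. Aimp2 had the smallest fitted change of the 3, 0.08, and stood at -0.22 (-0.68 to 0.24) in cerebellum.

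Of 11 tested genes for charging accessories and quality control, 7 were above 0, with a median of 0.11. Qrsl1, a subunit of the amidotransferase that makes mitochondrial glutaminyl-tRNA, stood at 0.63 ± 0.42 on 2 to 16 tags per library, and Ankrd16, a cofactor of alanine editing, at -0.13. Aarsd1, an alanyl editing protein, was the most abundant with 114 to 155 CPM and stood at 0.13. Of 24 tested genes of tRNA maturation and export, 13 were above 0, with a median of 0.03, and with library totals 12 were, with a median of -0.01. Rpp30, a subunit of ribonuclease P, stood at 0.47 ± 0.22 and Elac2, which trims the 3' end of transfer RNA, at -0.55 ± 0.42. Hsd17b10, a subunit of mitochondrial ribonuclease P, was the most abundant and was higher in liver (722 and 462 CPM against 40.0 to 44.3 in brain).

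Of 13 mitochondrial translation factors 5 were above 0 for genotype, with a median of -0.12. Gfm1, the mitochondrial elongation factor G, gave 27 and 37, 22 and 25, and 23 and 74 tags, a fitted change of -0.58 ± 0.25 (unadjusted p = 0.029, adjusted p = 0.998). Mtif2, the initiation factor, stood at 0.25, and Tufm, the elongation factor Tu and the most abundant at 70.7 to 258 CPM, at 0.20. In liver 11 of these factors were measured at 10 CPM or more, with a median ratio of -0.46, 5 past the limit as lower and 2 as higher, against 16.2% and 10.1% of all genes. After TMM scaling 6 of the 13 were higher in liver than in cerebellum and 0 lower, against 31.9% and 36.6% of all genes. On library totals 0 were higher and 5 lower, against 12.0% and 70.6%.

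Among 24 tested genes of the amino acid response, 5 were higher and 15 lower in liver than in cerebellum, with a median of -1.19, against 31.9% and 36.6% of all genes. Against hippocampus 7 were higher and 13 lower, with 32.7% and 35.9% of all genes. On library totals 4 were higher and 19 lower against cerebellum (12.0% and 70.6% of all genes) and 4 and 18 against hippocampus (13.5% and 66.1%). Asns, which makes asparagine and is a classical ATF4 target, gave 60.7 and 67.7 CPM in cerebellum, 64.1 and 58.2 in the hippocampus and 15.1 and 3.23 in liver (log2 -3.03 and -2.95, adjusted p = 2.5e-07 and 3.7e-07). Atf4 gave 250 and 231, 150 and 132, and 186 and 260 CPM. Its liver values overlapped those of cerebellum and lay above those of hippocampus, where it was higher in liver after TMM scaling (log2 0.67, adjusted p = 0.0039). For genotype, 5 of the 24 were above 0 and 19 below, with a median of -0.12 and 0 calls. Mthfd2, of mitochondrial folate metabolism, had the highest fitted change at 0.44 ± 0.32, and Chac1, a glutathione-degrading enzyme, the lowest at -0.61 ± 0.36. In liver the ratio of Asns was 2.23 (0.67 to 4.05), on 14 and 5 tags and at a mean under 10 CPM. That of Atf4 was -0.48 (-0.75 to -0.22), on 172 and 402 tags.

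Several members share exon bases with other genes. Aars is the one with a partner on the same strand: it shares 1326 exon bases with Exosc6, a subunit of the RNA exosome (GENCODE M21). No tag of Aars stood in a row shared with another gene, predicted genes and pseudogenes aside. Whether tags of Exosc6 were counted to Aars was not tested. Iars2 overlaps Rab3gap2 on the opposite strand over 2034 exon bases, and it gave 25 and 21 antisense tags in cerebellum, 13 and 21 in the hippocampus and 3 and 2 in liver. That was 47.2% and 28.0% of its tags in cerebellum, 20.0% and 30.9% in the hippocampus, and 12.5% and 3.28% in liver. Over all genes the antisense share was 2.23% to 2.87% per library. Antisense tags were not counted here, and their part in the Iars2 values was not tested. Mars had 26 antisense tags in all, and each of the other 34 members at most 6, with 21 of them at 0. Lars2 gave only 3 to 20 tags of its own per library, while a row that it shares with the ribosomal RNA genes Rn28s1 and Rn45s held 37 to 45 tags in 5 libraries and 159 in wild-type liver. That row stayed out of its level. Exosc6, Rab3gap2, Rn28s1 and Rn45s are named after their values were seen.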

How the data were processed

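The authors deposited raw counts of MACE tags per RefSeq record, sense and antisense, for 6 libraries; per the file headers the counts carry no normalization. CASAVA 1.8.2 called the bases and mm9 was the build according to the submitters' processing notes, but the deposited tables name a GRCm38 set; for the aligner, nothing is given in the sources used here. Sense counts were summed per symbol. A row that names a single gene beside predicted genes or pseudogenes was counted to that gene. Other rows that name several genes stayed joint (4472 of 22926 features). Rows that name no gene stayed out of library sizes and tests. Their sense tags made up 23.8% to 30.1% of all tags, sense and antisense together.

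The genotype and tissue tests used edgeR 4.0.16 (quasi-likelihood, TMM, filterByExpr by genotype, tissue and genotype as terms, Benjamini-Hochberg adjustment at 0.05 over 11375 genes), tested first on simulated data. Within a tissue, ratios of CPM carry exact 95% Clopper-Pearson intervals; no ratio was formed where both counts were at most 3, and a 0 was set to 3 counts. DESeq2 1.42.0, other scalings, filters and row rules were alternatives, and the fit with only the 4 libraries of the compared tissues was added after seeing the data. Promoter sequences and positions are from RefSeq on GRCm38.p6, with Mars matched as Mars1.

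The members and lists were chosen with earlier results of these data known. Any of the 36 members could be named, with values by library for the most abundant and for those with the most extreme genotype change or liver over brain ratio in each class (3 at each end). Of the other lists, the highest, lowest and most abundant gene were named, plus Atf4 and Asns. The p-values measure only the spread between these pools.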

Additional observations from a re-analysis of the deposited data

How the results depend on the processing

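No paired analysis was possible because each genotype and tissue has 1 library, so the groups share fewer than 2 replicate numbers; tissue served as the block, and without that block, as under each other alternative run, 0 members were called for genotype. Tissue calls moved with scaling and test. Higher in liver than in cerebellum were 16, but 2 with library totals (12.0% of all genes), 10 with no filter and 10 with DESeq2. Lower were 4, but 25 with library totals (70.6% of all genes). Against hippocampus 16 were higher, but 2 with library totals (13.5% of all genes) and 7 with DESeq2. Lower there were 3, but 5 with DESeq2 size factors (4401 of 11375 genes) and 18 with library totals (66.1% of all genes). With no filter 5 were lower there, and with DESeq2 2. Higher in cerebellum than in hippocampus were 3, but 0 with DESeq2, and lower were 0, but 1 without liver. For no filter, DESeq2 and the fit without liver no share of all genes is given. These counts therefore cannot be read as particular to the synthetases. The log2 value of Aars against cerebellum reversed to -0.38 with library totals. Within tissues the counts followed the limit: at 0.25 they were 6 higher and 4 lower in cerebellum, 8 and 4 in hippocampus and 7 higher in liver; at 1 they were 0 and 0 in cerebellum, 0 lower in hippocampus, and 0 higher and 1 lower in liver. With no CPM minimum hippocampus had 2 higher and 3 lower and liver 6 lower. Hippocampus had 3 lower with DESeq2 size factors (639 of 8558 genes) and 2 with library totals (560 of 8558). Liver had 1 higher with library totals (536 of 8248 genes). No share of all genes is given at the other limits or with no CPM minimum. The summed cytosolic ratio in liver was 0.034 with library totals, and the mitochondrial one -0.26 (-0.45 to -0.07) in place of -0.14. The cytosolic over mitochondrial ratio with members of at least 10 CPM was 6.86 and 6.47 in cerebellum, 5.96 and 6.43 in hippocampus and 4.42 in wild-type liver, and with joint rows added it was 3.24 in wild-type liver, through the row shared by Lars2. The cause of the other shifts was not tested. Ears2 gave at most 9 tags in any library, and in liver Lars2, Mars2 and Pars2 did too, so small differences were not detectable there.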
